A study of Mus musculus with 10 samples.

Results

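Myosin heavy chains are the motor subunits that bind actin filaments and move along them by hydrolysing ATP. The conventional class II chains assemble into bipolar filaments that pull actin together, while the unconventional classes act as single or paired motors that tether membranes, carry cargo or sit at the tips of protrusions. Macrophages use them in crawling, in phagocytosis and in the adhesive structures called podosomes. The 10 genes described here are a conventional chain (Myh9), 4 of class I (Myo1c, Myo1e, Myo1f and Myo1g), and Myo5a, Myo7a, Myo9a, Myo9b and Myo10. They are 10 of the 53465 genes in the deposited count table and 10 of the 13203 genes with enough counts to be tested, so every one of them passed the filter on low counts.

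The genes were selected on the family name together with their counts in the comparison of Mac-GsαKO with CTR macrophages, with results of that comparison already known. Their differences between the genotypes are therefore given as a description, with standard errors and without p-values. RNA was sequenced in bulk from cultured peritoneal macrophages of 5 Mac-GsαKO libraries (KO) and 5 CTR libraries; the mice were aged 6 to 8 weeks. As their name says, KO mice lack in macrophages the stimulatory G protein subunit Gsα, which couples receptors to cAMP synthesis and is encoded by Gnas; the sources used here do not give the Cre driver, the allele or the genotype of CTR mice beyond that label. The cells were kept in DMEM with serum and antibiotics and received no further treatment. In bulk RNA, fewer cells with a transcript and less of that transcript per cell cannot be told apart, and no label states 1 mouse per library, so errors and p-values describe the spread between libraries.

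Libraries held between 16877249 and 19235777 counts in KO and between 15664243 and 18028974 in CTR. Gnas (ENSMUSG00000027523) stood at 40.2 ± 2.62 CPM in KO and 435 ± 62.4 CPM in CTR (mean ± SD, n = 5 each), where CPM is a count scaled to library size with TMM factors. The macrophage markers Adgre1, Csf1r, Cd68, Itgam, Cd14, Fcgr1 and Mertk summed to between 5503 and 6422 CPM in KO and between 5134.5 and 5731 CPM in CTR. With Lyz2, itself at 9240 ± 517 CPM in KO and 26528 ± 3802 CPM in CTR, the sums were 14619.5 to 16142 in KO and 30041.5 to 38429 in CTR. Markers of other cells were low, each list being summed per library. They came to 4.52 to 8.81 CPM in KO and 1.68 to 5.53 CPM in CTR for B cells, 4.06 to 5.74 in KO and 3.44 to 5.87 in CTR for T and NK cells, and 2.03 to 12.2 in KO and 1.35 to 9.89 in CTR for neutrophils, of which Ly6g and Ngp had no count in any library. Mast cell markers summed to 1.45 to 18.6 CPM in KO and 3.31 to 29.9 CPM in CTR, muscle markers to 4.35 to 5.57 in KO and 4.09 to 17.6 in CTR, and markers of mesothelial cells and fibroblasts to 60.6 to 78.4 in KO and 38.9 to 169 in CTR. CTR 4 and CTR 5 stood apart from the other libraries, both at -34.7 on the first principal component, against 11.6 to 28.7 for KO and -18.5 to -6.85 for CTR 1 to CTR 3. On the second component CTR 4 lay at 46.7 and CTR 5 at -9.46, against -25.6 to 10.9 in the other libraries, so they lay apart from each other there. Fold changes of the members and medians of the gene lists are given with and without CTR 4 and CTR 5.

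A short sequence found in all 10 members is the P-loop, the stretch of the motor that grips the phosphates of ATP. Its coding bases were read from the longest protein-coding transcript of each gene in GENCODE M21 (GRCm38), and they are shown because all 10 genes carry the P-loop but encode it with differing bases. The 24 capital bases encode the P-loop and the lower-case bases are the 15 on either side, written 5′ to 3′ on the transcript strand. The genes lie on chromosome 15 (Myo10 and Myh9), 9 (Myo1e, Myo5a and Myo9a), 11 (Myo1c and Myo1g), 17 (Myo1f), 7 (Myo7a) and 8 (Myo9b), and the P-loop lies in coding exons.
Myo10: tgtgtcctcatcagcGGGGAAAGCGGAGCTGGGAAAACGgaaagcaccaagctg
Myo1e: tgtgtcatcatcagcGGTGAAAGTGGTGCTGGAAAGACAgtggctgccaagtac
Myo1f: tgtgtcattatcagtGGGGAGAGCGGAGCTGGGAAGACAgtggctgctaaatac
Myo1c: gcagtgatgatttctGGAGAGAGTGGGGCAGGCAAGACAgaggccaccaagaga
Myo1g: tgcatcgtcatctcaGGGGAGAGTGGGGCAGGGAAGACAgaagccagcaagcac
Myh9: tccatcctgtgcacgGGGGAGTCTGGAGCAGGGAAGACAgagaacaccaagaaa
Myo5a: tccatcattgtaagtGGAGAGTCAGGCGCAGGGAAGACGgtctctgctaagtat
Myo7a: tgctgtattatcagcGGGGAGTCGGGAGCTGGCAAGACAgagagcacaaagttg
Myo9a: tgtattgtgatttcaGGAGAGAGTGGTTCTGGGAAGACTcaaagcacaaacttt
Myo9b: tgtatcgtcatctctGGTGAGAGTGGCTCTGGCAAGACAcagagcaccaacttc

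Over these 24 bases any pair of members was equal at 15 to 22 positions, and 13 positions were equal in all 10. The 8 encoded residues were identical in 8 members, while Myo9a and Myo9b shared another version, so the differences among the other 8 are in the codons only. Even here no member repeated another exactly. Over whole transcripts, no window of 50 bases of Myo10, Myo1c, Myo1e, Myo1f, Myo1g, Myo7a, Myo9a or Myo9b occurred in a transcript of another gene. Of the windows of Myh9, 83 of 7384 occurred in Myh10 or Myh11, its class II relatives, and 9 of 11653 of Myo5a occurred in other transcripts. Myo9b overlaps 116 exonic bases of Haus8 on the other strand, and Haus8 averaged 456 counts in KO and 437 in CTR; the sources used here do not give the strand setting of the counting, so antisense reads cannot be told apart.

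Levels between genes are compared per length, in the FPKM the authors deposited (fragments scaled by gene length and library size). Myo1f, a long-tailed class I motor of blood cells, was the most abundant of the 10 with 128 ± 5.11 FPKM in KO and 124 ± 13.5 FPKM in CTR. Its long-tailed relative Myo1e, which works at phagocytic cups and podosomes, followed with 54.4 ± 4.81 FPKM in KO and 40.2 ± 4.05 in CTR, and Myh9, the heavy chain of non-muscle myosin IIA, with 40.0 ± 4.73 in KO and 34.4 ± 5.95 in CTR. A middle group held the short-tailed class I motors Myo1c and Myo1g at 23.1 ± 1.11 and 20.9 ± 2.06 FPKM in KO, against 20.3 ± 3.10 and 20.3 ± 3.02 in CTR. Also in it were Myo9b, a motor whose tail carries a GTPase-activating domain, at 18.2 ± 0.811 in KO and 15.7 ± 5.08 in CTR, and Myo5a, the melanosome carrier of pigment cells, at 18.0 ± 1.99 in KO and 19.3 ± 7.83 in CTR. These 4 could not be put in a full order: in KO the ranges of Myo1c and Myo1g, of Myo1g and Myo9b, and of Myo9b and Myo5a overlapped, and in CTR all neighbours in this group did. In KO, though, the lowest value of Myo1c, 21.1 FPKM, lay above the highest of Myo9b, 19.2 FPKM. Myo1g also lay above Myo9b in all 5 KO libraries. Myo7a, known for its part in the hair cells of the inner ear, stood at 5.62 ± 1.03 FPKM in KO and 5.23 ± 0.651 in CTR, below all genes of the middle group in every library.

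The least abundant were Myo10, the motor of filopodial tips, and Myo9a, a class IX relative of Myo9b. Myo10 stood at 3.37 ± 0.381 FPKM in KO and 1.44 ± 0.307 in CTR, and Myo9a at 1.82 ± 0.323 in KO and 1.45 ± 0.493 in CTR. Myo10 lay above Myo9a in all 5 KO libraries with no overlap, whereas in CTR the ranges overlapped and Myo10 was the lower of the pair on average. All other neighbours not named here had ranges that did not overlap, except Myo1e and Myh9 in CTR, where Myo1e was the higher in 4 of 5 libraries. FPKM divides by the gene length the authors used, 6350 bases for Myo1f to 20555 for Myo5a, so an annotation with long or retained segments lowers the level.

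**Figure D1:**
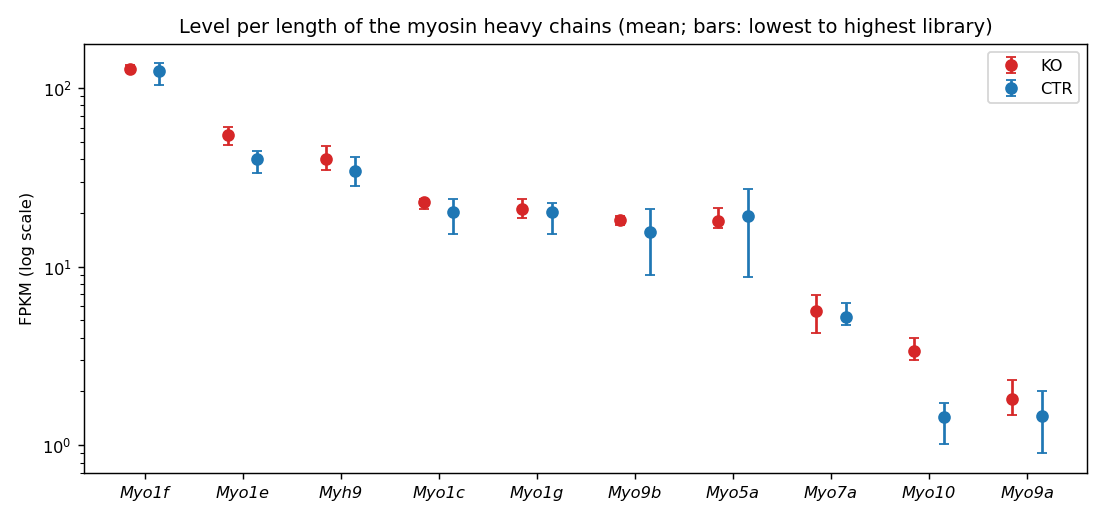
Level per length of the 10 myosin heavy chains in FPKM on a log axis, KO left of CTR for each gene; points are means of 5 libraries and bars run from the lowest to the highest library. Myo1f lay highest at 128 FPKM in KO and 124 in CTR, and the KO and CTR bars do not meet for Myo10 and for Myo1e. In CPM the genotypes overlapped for Myo1e, and the share of all genes without overlap was not counted in FPKM.

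The 10 members held 98.5 ± 0.0494% of the summed FPKM of 39 myosin heavy chain genes in KO and 98.6 ± 0.0700% in CTR. Since counts entered the selection of the members, a large share follows in part from that choice. The 4 class I members alone held 71.2 ± 1.40% in KO and 71.9 ± 3.52% in CTR, from 69.2 to 73.0% and from 68.4 to 76.1% by library. By library the share of Myo10 was 0.918 to 1.23% in KO and 0.393 to 0.536% in CTR and on average that of Myo1f 40.3 ± 1.07% in KO and 43.5 ± 1.58% in CTR. A share is a ratio within a library, so it is free of the scaling between libraries but moves when any other member moves.

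Between the genotypes, Myo10 had the largest difference of the 10 members. It had 49.3, 59.4, 44.6, 47.5 and 52.6 CPM in KO 1 to KO 5, against 25.03, 25.8, 24.5, 20.2 and 15.1 CPM in CTR 1 to CTR 5. Every KO library lay above every CTR library, and CTR 5 was the lowest of all. The log2 fold change, KO over CTR, was 1.19 (SE 0.14), or 2.29-fold. It was 1.01 (SE 0.10) without CTR 4 and CTR 5, 1.05 (SE 0.12) when each library was corrected for a trend on gene length and GC content, and 0.94 (SE 0.08) with both. With any 1 library left out it lay between 1.09 and 1.25.

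Myo1e had the next largest difference with all libraries, while without CTR 4 and CTR 5 that of Myo5a was larger in size. Myo1e had 311, 361, 337, 363 and 395 CPM in KO 1 to KO 5, against 274, 266, 265, 324 and 216 CPM in CTR 1 to CTR 5. In CPM only CTR 4 reached into the KO range, above KO 1, while CTR 1 to CTR 3 lay close together. The log2 fold change was 0.39 (SE 0.11), and it was 0.40 (SE 0.08) without CTR 4 and CTR 5, 0.37 (SE 0.11) with the length and GC correction and 0.38 (SE 0.07) with both. Its close relative Myo1f had 777, 815, 839, 772 and 827 CPM in KO, against 857, 866, 811, 728 and 736 CPM in CTR, with a log2 fold change of 0.01 (SE 0.08), and of -0.07 (SE 0.06) without CTR 4 and CTR 5. The 2 long-tailed class I genes thus gave different values, though the difference between them was not tested.

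The short-tailed class I genes lay close together between the genotypes. Myo1c, which helps bring vesicles to the plasma membrane in fat cells, averaged 206 ± 9.74 CPM in KO and 186 ± 22.2 CPM in CTR, a log2 fold change of 0.15 (SE 0.09). It was 0.06 (SE 0.07) without CTR 4 and CTR 5 and 0.05 (SE 0.09) with the length and GC correction, and in CTR 4 it stood at 153 CPM, the lowest of the 10 libraries. Myo1g, a motor restricted largely to blood cells, averaged 190.1 ± 19.0 CPM in KO and 189 ± 21.0 CPM in CTR, a log2 fold change of 0.01 (SE 0.10), and of -0.05 (SE 0.09) without them. For both genes the genotypes overlapped.

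Myh9 had 532, 539, 579.7, 495 and 668 CPM in KO, against 540.0, 583, 526, 442 and 392 CPM in CTR. The KO values lay among those of CTR 1 to CTR 3 except KO 5, the highest, and KO 4. The log2 fold change was 0.18 (SE 0.12), and it was 0.04 (SE 0.09) without CTR 4 and CTR 5 and -0.01 (SE 0.11) with the length and GC correction.

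Myo5a showed the widest spread of the 10, and the spread lay in CTR. It had 341, 342, 379.9, 338 and 431 CPM in KO, against 464, 556, 506, 198 and 273 CPM in CTR. CTR 1 to CTR 3 all lay above every KO library, whereas CTR 4 and CTR 5 lay below every KO library. Its coefficient of variation was 10.99% in KO and 38.9% in CTR, and it was lower in CTR 1 to CTR 3 than in KO. The log2 fold change over all libraries was -0.13 (SE 0.24), between -0.30 and 0.02 with any 1 library left out, but -0.47 (SE 0.09) without CTR 4 and CTR 5, and -0.43 (SE 0.07) with the length and GC correction besides. With that correction and all libraries it was -0.20 (SE 0.16).

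The 2 class IX genes shared the low values of CTR 4 and CTR 5. Myo9b had 219, 237, 231, 214 and 226 CPM in KO, against 235, 262, 226, 124 and 143 CPM in CTR. Myo9a had 23.2, 24.1, 26.4, 20.6 and 32.5 CPM in KO, against 24.8, 28.2, 23.0, 14.0 and 13.3 CPM in CTR. In both genes CTR 1 to CTR 3 lay within or above the KO range and CTR 4 and CTR 5 below it. The log2 fold change of Myo9b was 0.19 (SE 0.18), and -0.09 (SE 0.07) without CTR 4 and CTR 5, and that of Myo9a was 0.29 (SE 0.21), and 0.00 (SE 0.13) without them. For Myo9b it was 0.05 (SE 0.16) with the length and GC correction, and -0.20 (SE 0.06) with the correction and without CTR 4 and CTR 5. For Myo9a these values were 0.30 (SE 0.15) and 0.12 (SE 0.11). Myo7a had 70.1, 71.8, 50.2, 59.4 and 82.1 CPM in KO, against 56.7, 74.9, 64.8, 63.6 and 58.3 CPM in CTR, a log2 fold change of 0.07 (SE 0.13), and of 0.03 (SE 0.15) without CTR 4 and CTR 5. It was the only member that varied more in KO than in CTR, with a coefficient of variation of 18.4% in KO and 11.2% in CTR.

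**Figure D2:**
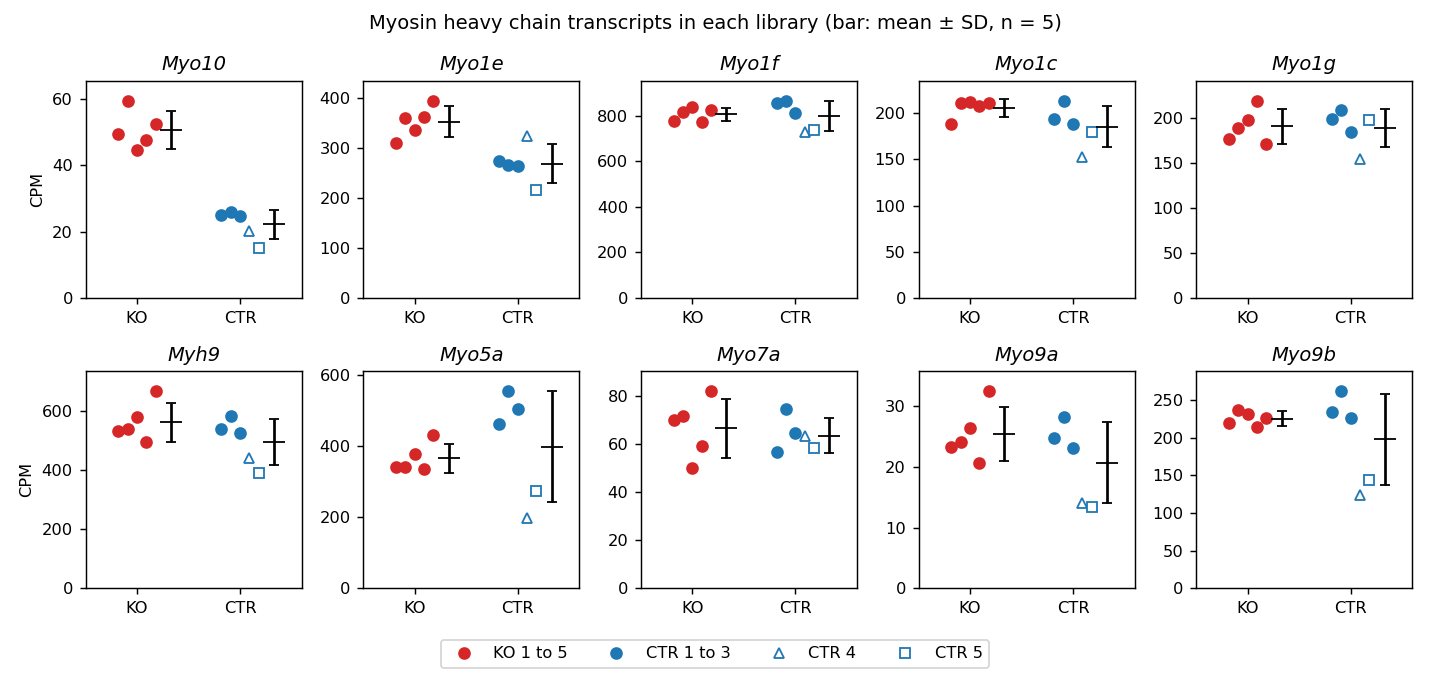
CPM of each of the 10 genes in every library, KO left and CTR right, on axes that start at 0; the bar beside each group is the mean ± SD (n = 5), the open triangle is CTR 4 and the open square is CTR 5. Only for Myo10 does every KO library lie above every CTR library, and CTR 4 and CTR 5 lie below all other libraries for every member except Myo1e, Myo1g and Myo7a.

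By value 9 of the 10 members were higher in KO and 1, Myo5a, was lower, a count that was also 9 with DESeq2 size factors or with library size alone. The median log2 fold change of the members was 0.17, against -0.01 over all genes tested. Without CTR 4 and CTR 5 it was 6 higher and 4 lower with a median of 0.02, and after the length and GC correction 5 higher and 5 lower with a median of 0.02. With both, only Myo10, Myo1e and Myo9a were higher in KO, and the median was -0.07, against 0.01 over all genes tested. CTR 4 and CTR 5 were the 2 lowest CTR libraries in 7 of the 10 members, and CTR 4 was the highest for Myo1e. The members are long genes, with a median length of 12276 bases against 5554 over the genes tested. At the members' length and GC content the fitted trend of a library had a median of -0.19 on the log2 scale in CTR 4 and -0.05 in CTR 5, and between -0.04 and 0.09 in the other 8 libraries. The largest fitted values were those for Myo5a, -0.33 in CTR 4 and -0.28 in CTR 5.

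In the edgeR quasi-likelihood test with Benjamini-Hochberg adjustment over all genes, 1 of the 10 members was called at an adjusted p under 0.05, Myo10, and it was higher in KO. Over all genes tested 3.94% were called, 1.83% (241 genes) as higher and 2.11% (279 genes) as lower; library-size scaling gave 312 higher and 213 lower. In CPM the genotypes did not overlap for 1 member, again Myo10, with higher values in KO. Over all genes 3.25% were so higher and 4.55% so lower. In FPKM, which carries no TMM factor, Myo1e did not overlap either. Its lowest KO library was at 47.8 FPKM and its highest CTR library at 44.7 FPKM. The share over all genes was not counted in FPKM. Without CTR 4 and CTR 5 there were 3 calls, Myo10 and Myo1e higher and Myo5a lower, against 8.76% of all genes (5.13% higher and 3.63% lower), and the same 3 with the length and GC correction besides, against 6.98%. With the correction and all libraries Myo10 alone was called, against 4.13%. The DESeq2 Wald test called Myo10 and Myo1e, against 9.76% of all genes, as did limma voom with sample quality weights, against 14.5%, and library-size scaling in edgeR, against 3.98%. Since the members were chosen with this comparison known, these counts support nothing about the family.

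**Figure D3:**
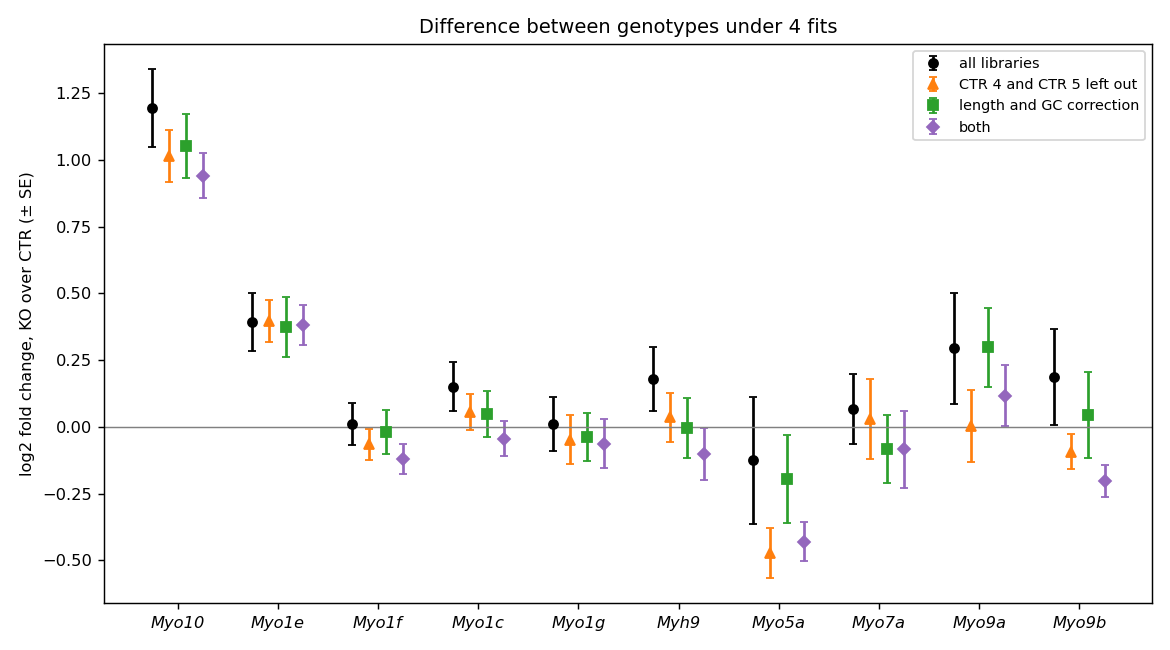
Log2 fold change of each member, KO over CTR, with its SE in 4 fits: all libraries, CTR 4 and CTR 5 left out, a length and GC correction, and both. Myo10 lies between 0.94 and 1.19 and Myo1e between 0.37 and 0.40 in all 4, while Myo5a moves between -0.13 and -0.47.

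The genes whose profile over the 10 libraries came closest to the mean centred profile of the 10 members were Sf3b1 (a splicing factor), Gtf3c1 (a subunit of transcription factor IIIC), Itch (a ubiquitin ligase), Anapc1 (a subunit of the anaphase-promoting complex) and Acap2 (a regulator of Arf GTPases). Their root mean square difference from it was between 0.0445 and 0.0543 on the log2 scale, against a median of 0.327 over all genes tested. These genes were picked as the nearest on this measure, so lying below that median was fixed by the choice. Of the members Myh9 was nearest to the mean profile, at 0.0832, and Myo10 farthest, at 0.486. The mean profile itself stood at -0.39 in CTR 4 and -0.40 in CTR 5 and between -0.01 and 0.26 in the other 8 libraries.

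**Figure D4:**
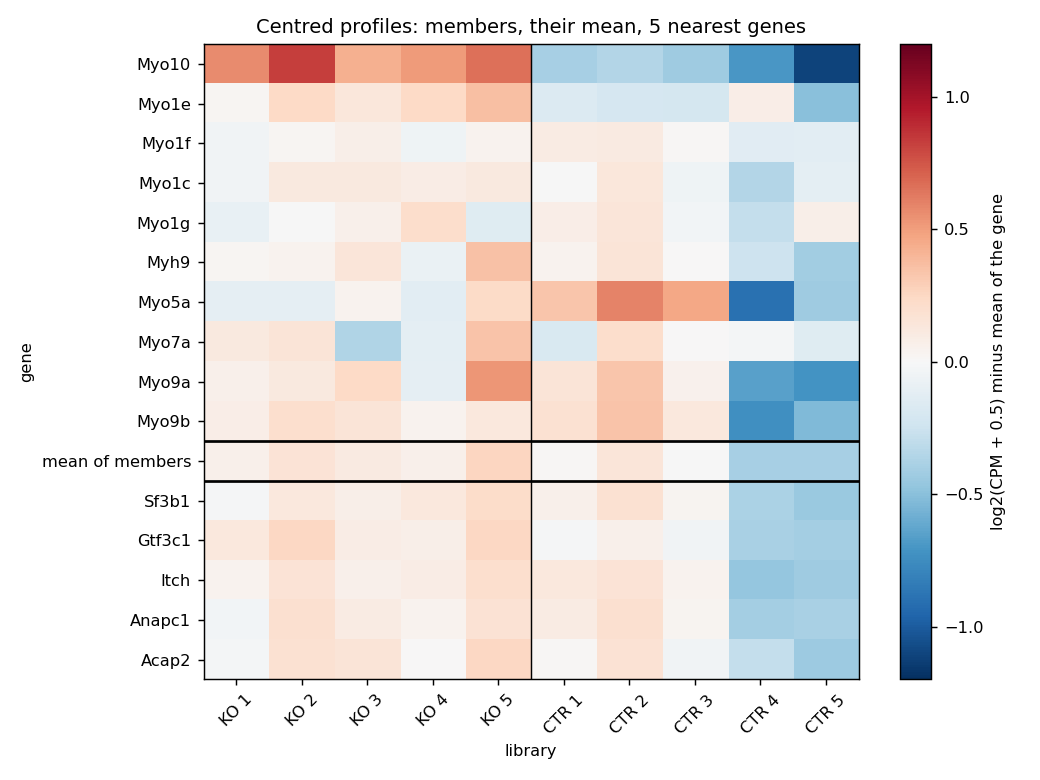
Log2(CPM + 0.5) of each member, of their mean and of the 5 nearest genes, each minus its own mean over the 10 libraries; columns are libraries, KO left of CTR. The mean profile and the 5 genes are low in CTR 4 and CTR 5 only, and among the members Myo10 is the row in which all KO columns exceed all CTR columns.

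Promoter windows of 250 bases before to 50 after the annotated start are shown for Myo10 and Myo1e, the members with the largest positive log2 fold change, because Gsα acts through cAMP and the cAMP-responsive factor CREB binds TGACG and its full palindrome TGACGTCA. They come from RefSeq (GRCm38.p6), an older build than the one named for the counts, and all 10 members were matched, in 14 windows. Capitals mark TGACG or GAGGAA (the core of sites of the macrophage factor PU.1) on either strand. Myo10 has 2 annotated starts, at chr15:25622300-25622599 and chr15:25752956-25753255 (both on the plus strand), whose transcripts a count per gene pools. Myo1e has 1, at chr9:70207100-70207399 (plus strand).
Myo10 first start: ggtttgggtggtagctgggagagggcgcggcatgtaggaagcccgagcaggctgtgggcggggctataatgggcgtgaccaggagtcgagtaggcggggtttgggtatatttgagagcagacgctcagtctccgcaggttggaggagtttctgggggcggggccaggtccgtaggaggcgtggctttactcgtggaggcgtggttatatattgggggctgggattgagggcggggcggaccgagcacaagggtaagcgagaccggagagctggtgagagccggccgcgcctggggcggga
Myo10 second start: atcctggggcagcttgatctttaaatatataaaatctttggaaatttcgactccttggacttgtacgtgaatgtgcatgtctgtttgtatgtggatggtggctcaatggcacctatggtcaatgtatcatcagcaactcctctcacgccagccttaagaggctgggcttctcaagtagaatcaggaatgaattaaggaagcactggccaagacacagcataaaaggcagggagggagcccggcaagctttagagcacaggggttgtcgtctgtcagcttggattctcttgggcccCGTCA
Myo1e: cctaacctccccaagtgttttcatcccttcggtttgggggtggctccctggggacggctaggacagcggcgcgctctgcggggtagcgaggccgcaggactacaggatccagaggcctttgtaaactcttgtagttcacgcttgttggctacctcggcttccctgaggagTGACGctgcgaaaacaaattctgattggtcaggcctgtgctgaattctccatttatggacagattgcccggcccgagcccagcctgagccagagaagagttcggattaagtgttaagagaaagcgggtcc

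Of the 14 member windows 2 held TGACG, those of Myo1e and of the second Myo10 start, and the match at Myo10 is the last 5 bases of its window. Of all 32851 windows, 20.8% held it. The palindrome TGACGTCA, which contains TGACG on both strands, was in none of the 14, and in 1.79% of all. GAGGAA was in 3 of the 14, those of Myo1f and 2 of Myo1c, and in 28.3% of all. TATAAA was in 2, Myh9 and the second Myo10 start (13.6% of all), and a CArG box, the site of serum response factor, in that of Myo1e (1.63% of all). The windows of the members had a median of 60.7% GC and 15 CpG, against 52.7% and 7 over all windows, and ranged from 2 CpG for Myo1g to 37 for Myo9a. A match is only a run of letters, and its absence says nothing about the factor.

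Of the 29 other myosin heavy chain genes listed, 8 had no count in any library, which allows up to 3 counts per library or 0.154 to 0.203 CPM, and 14 more had at most 14 counts in any library. The remaining 7 were tested: 1 rose in KO and none fell at an adjusted p under 0.05, and at an unadjusted p under 0.05 there were 2 higher and none lower. Their log2 fold changes had a median of 0.23, and of 0.20 without CTR 4 and CTR 5. The median was 0.02 with the length and GC correction and 0.01 with both, so it depended on the fit. Over all 13203 genes tested 241 rose and 279 fell, and at an unadjusted p under 0.05 there were 1326 higher and 1569 lower. Myh10, the heavy chain of non-muscle myosin IIB, had 5.45, 7.63, 6.12, 6.81 and 5.11 CPM in KO, against 3.91, 3.68, 4.40, 3.04 and 2.87 CPM in CTR. All KO libraries lay above all CTR libraries, and the log2 fold change was 0.79 (SE 0.17, adjusted p = 0.0273). Leaving out KO 1, KO 2 or KO 4 ended the call of Myh10 (largest adjusted p = 0.0856), and with the replicate number as a block its adjusted p was 0.0688. Its difference was 0.64 without CTR 4 and CTR 5 (adjusted p = 0.0464) and 0.59 with the length and GC correction besides (adjusted p = 0.0717). The markers of mesothelial cells and fibroblasts, which also carry Myh10, lay at 60.6 to 78.4 CPM in KO, inside the 38.9 to 169 CPM of CTR; their part in the result was not tested.

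Myo18a, a motor-like chain known at the Golgi, was with 3.72 ± 0.113 FPKM in KO and 2.92 ± 0.419 FPKM in CTR on average more abundant per length than the members Myo10 and Myo9a. Its log2 fold change was 0.31 (SE 0.09, adjusted p = 0.0807), and 0.20 (adjusted p = 0.0867) without CTR 4 and CTR 5 and 0.02 (adjusted p = 0.925) with the length and GC correction. DESeq2 and voom called it (adjusted p = 0.0200 and 0.0307). Myo19, the myosin of mitochondria, averaged 3.11 ± 1.28 CPM in KO and 2.53 ± 0.661 CPM in CTR (log2 fold change 0.30, SE 0.29, adjusted p = 0.579; 0.42 without CTR 4 and CTR 5).

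Heavy chains work with light chains bound to their necks, among them the Myl proteins of class II. Of 16 light chain genes listed, calmodulin genes included, 8 passed the count filter, and the median log2 fold change of these was -0.17. It was 0.11 without CTR 4 and CTR 5. By value, with all libraries, 1 of the 8 was higher in KO and 7 were lower, against 49.2% higher over all genes tested. Calm2, a calmodulin gene, averaged 706 ± 45.6 CPM in KO and 696 ± 167 CPM in CTR (log2 fold change 0.02, SE 0.14, adjusted p = 0.952; 0.12 without CTR 4 and CTR 5). Myl12b, a regulatory light chain of non-muscle myosin II, averaged 169 ± 10.9 CPM in KO and 175 ± 27.1 CPM in CTR (-0.05, SE 0.11, adjusted p = 0.810; 0.10 without CTR 4 and CTR 5). For both genes the libraries of the genotypes overlapped. Myl6b, singled out after its values were seen, had -0.93 (SE 0.27, adjusted p = 0.0759 in edgeR). DESeq2 called Myl6b as lower, while voom did not, nor did edgeR without CTR 4 and CTR 5.

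Of 19 tested genes that switch non-muscle myosin on or off (Rhoa, Rhob and Rhoc, ROCK kinases, myosin phosphatase subunits, Cit, MRCK, DAPK and PAK kinases and S100a4) none rose and none fell in edgeR, DESeq2 or voom. None did so at an unadjusted p under 0.05 in edgeR either, against 1326 higher and 1569 lower of all 13203 genes tested. The median log2 fold change was 0.03, and -0.06 without CTR 4 and CTR 5. The most abundant per kilobase were Rhob (464 ± 40.7 CPM in KO and 488 ± 83.4 CPM in CTR), Rhoc (354 ± 33.1 CPM in KO and 336 ± 131 CPM in CTR) and Ppp1r14b, an inhibitor of the phosphatase (72.9 ± 3.69 CPM in KO and 80.4 ± 24.8 CPM in CTR). For Rhoc the log2 fold change was 0.07 (SE 0.21, adjusted p = 0.866), but 0.56 (adjusted p = 0.00645) without CTR 4 and CTR 5, 0.04 (adjusted p = 0.906) with the length and GC correction, and 0.37 (adjusted p = 0.0596) with both.

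Of 12 tested cargo partners, adaptors and chaperones of myosins none rose and none fell in edgeR (none higher and 3 lower at an unadjusted p under 0.05, against 1326 and 1569 of all 13203 genes tested), with a median of -0.09, and of -0.16 without CTR 4 and CTR 5; DESeq2 called none of them and voom 1, Gipc1. Rilpl2, a partner of Myo5a, averaged 465 ± 20.5 CPM in KO and 533 ± 76.4 CPM in CTR (log2 fold change -0.20, SE 0.10, adjusted p = 0.269; -0.06 without CTR 4 and CTR 5), and Dynll2, a dynein light chain that also binds Myo5a, 33.0 ± 4.57 CPM in KO and 43.6 ± 6.85 CPM in CTR (-0.40, SE 0.13, adjusted p = 0.0964; -0.25 without them). Gipc1, an adaptor of Myo6, had 0.13 (SE 0.14, adjusted p = 0.624), and 0.40 (adjusted p = 0.00840) without CTR 4 and CTR 5. It was 0.07 (adjusted p = 0.720) with the length and GC correction and 0.17 (adjusted p = 0.222) with both. Unc45a, the chaperone that folds myosin motors and was singled out after its values were seen, had -0.25 (SE 0.10, adjusted p = 0.168) and was the 1 gene of this list called with the length and GC correction, as lower.

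Of 24 tested genes of the actin cytoskeleton none rose and none fell in edgeR (5 higher and none lower at an unadjusted p under 0.05, against 1326 and 1569 of all 13203 genes tested), and the median log2 fold change was -0.01, and 0.03 without CTR 4 and CTR 5. DESeq2 called Vcl (vinculin) and voom called Vasp and Evl, all as higher, and Vasp was also called without CTR 4 and CTR 5; these 3 names were chosen after their values were seen. Actb, the main cytoplasmic actin, averaged 4248 ± 1290 CPM in KO and 3390 ± 741 CPM in CTR (log2 fold change 0.33, SE 0.21, adjusted p = 0.389; 0.40 without CTR 4 and CTR 5), and Cfl1, which severs filaments, 1512 ± 113 CPM in KO and 1762 ± 389 CPM in CTR (-0.22, SE 0.14, adjusted p = 0.367). Without CTR 4 and CTR 5 Cfl1 was at 0.03 (adjusted p = 0.848). Cdc42, a GTPase that drives filopodia, averaged 785 ± 44.5 CPM in KO and 871 ± 37.9 CPM in CTR (-0.15, SE 0.07, adjusted p = 0.248; -0.18 without CTR 4 and CTR 5).

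**Figure D5:**
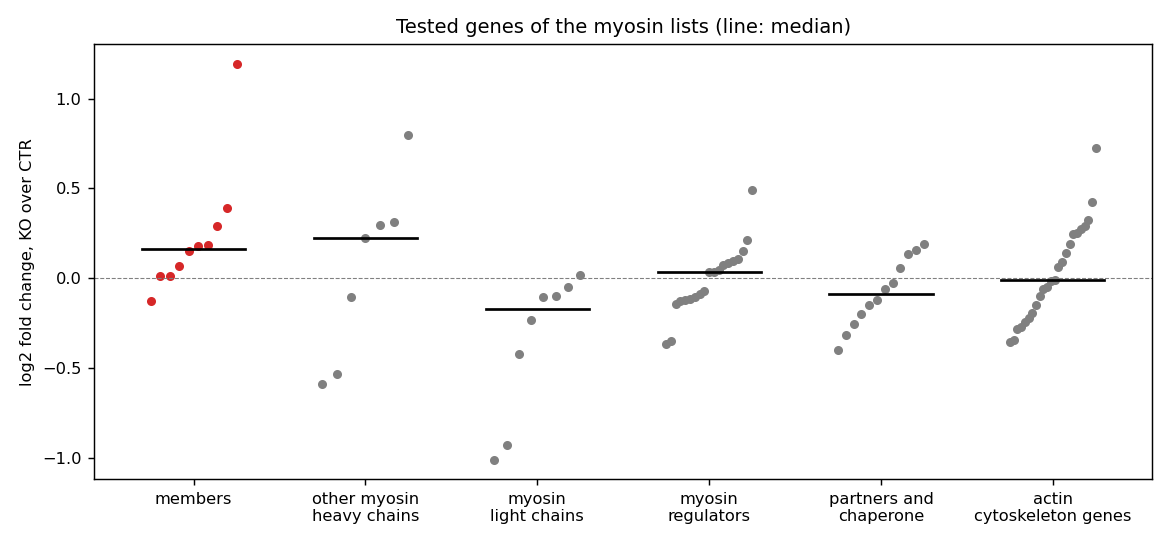
Log2 fold change, KO over CTR, of every tested gene in the 10 members and in the 5 lists around them; black lines are medians. Myo10 at 1.19 and Myh10 at 0.79 are the highest points, and the list medians lie between -0.17 and 0.23.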

How the data were processed

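The authors deposited raw counts and FPKM for each Ensembl gene in 10 libraries, whose columns match the samples' labels. Per the submitters' processing notes CASAVA 1.8, HISAT2, SAMtools 1.3.1, edgeR and GRCm39 were used; the counter, annotation and strand setting were not found there. The FPKM fit the counts over 1 length per gene and the column total (deviation up to 1.4e-05 in genes with at least 50 counts), which gave the length. Symbols were matched by identifier for 53274 genes; 191 without one held 0.0403% of the counts.

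Counts were fitted in R 4.3.3 with edgeR 4.0.16 (filterByExpr, TMM, quasi-likelihood test, genotype as the only term, two-sided, adjusted over 13203 genes, threshold 0.05), and the fits were tested on simulated data. The simulated counts had the same dispersion for all genes, no outlying library and no trend on length or GC. They therefore say nothing about the effect of CTR 4, CTR 5 or such a trend. SE values are |log2 fold change|/√F. Alternatives were no low-count filter, scaling by library size or by DESeq2 size factors, a CPM of at least 1 in 5 libraries, DESeq2 1.42.0, limma 3.58.1 voom with quality weights, the replicate number as a block, each library left out, CTR 4 and CTR 5 left out, and a smooth trend on length and GC (mgcv 1.9.3, GC from GENCODE M21, available for 99.9% of genes tested). The last 2 together were added after the data were seen. No label sets CTR 4 and CTR 5 apart. They stood apart in these same counts, so calls and p-values without them follow a choice made on the data.

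The members and lists were chosen with earlier results of these data known. Named genes are all members, Gnas and Lyz2, up to 6 called genes and the 3 most abundant per kilobase of each other list, and the 5 nearest profiles; genes outside this are marked as chosen after their values were seen. The lists cover other myosin heavy chains, light chains, regulators, partners and chaperone, actin cytoskeleton genes and cell type markers. Without molecular identifiers reads may repeat a molecule, so limits from counts cover counting error only. The result of 1 gene of the light chain list is not reported here.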

Additional observations from a re-analysis of the deposited data

Results flagged for a closer look

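A library stood far from the other 4 of its genotype in 3 of 54 groups of 5 examined, where chance gives about 1 in 20. Myo1c had 189 CPM in KO 1, against 208 to 212 CPM in the other KO libraries. Lyz2 had 33295 CPM in CTR 4, against 24310 to 25275 CPM in the other CTR libraries. Rhob had 633 CPM in CTR 4, against 433 to 484 CPM in the other CTR libraries.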

How the results depend on the processing

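The number of genes called over all genes was 520 (241 higher, 279 lower) and ranged from 62 to 868 with 1 library left out (62 with KO 2 left out, 121 with CTR 3, 127 with KO 4, 131 with KO 1, 320 with KO 3, 868 with CTR 4). It was 1185 without CTR 4 and CTR 5, 944 with the length and GC correction besides, 1289 by DESeq2, 1919 by voom and 261 with no filter on low counts. Library-size scaling gave 312 higher and 213 lower. Of the members 1 or 2 were called with 1 library left out (2 without CTR 4, where Myo1e joined Myo10), 3 without CTR 4 and CTR 5, with or without the correction, and 2 by DESeq2, voom or library-size scaling. Of the other heavy chains 0 to 1 were called with 1 library left out (0 when it was KO 1, KO 2 or KO 4), 2 by DESeq2 or voom, and 0 without CTR 4 and CTR 5 with the correction. Of the light chains 0 to 1 were called with 1 library left out, 2 by DESeq2, and 0 with library-size scaling, with no filter, or without CTR 4 and CTR 5 with the correction. Of the regulators 1 was called without CTR 4 and CTR 5. Of the partners Gipc1 alone was called, as higher, without CTR 4 and CTR 5 or by voom. With the correction, or with both, Unc45a alone was called, as lower. Of the actin genes 0 to 1 were called with 1 library left out (1 without CTR 5), 1 without CTR 4 and CTR 5 with or without the correction, 1 by DESeq2 and 2 by voom. The causes were not tested.

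Equal replicate numbers were not taken as pairs: their residuals correlated between -0.126 and 0.0582 across genes, which are not independent replicates. With the replicate number as a block 104 genes were called, and 216 with the length and GC correction besides; the members called stayed at 1, and the other heavy chains and the light chains had 0 in both. Depth limits little here, since each member had at least 207 counts in every library.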
